A study of Mus musculus with 8 samples.

Results

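The genes described here encode enzymes that methylate histone H3 at lysine 9 (H3K9), the heterochromatin proteins that read this mark, and the corepressor TRIM28. There are 10 of them among the 23343 genes of the RNA-seq tables: the methyltransferase genes *Suv39h1*, *Suv39h2*, *Setdb1*, *Setdb2*, *Ehmt1* and *Ehmt2*, the HP1 genes *Cbx1*, *Cbx3* and *Cbx5*, and *Trim28*. They were chosen by name, with earlier results of these data known. All 10 were found in the tables and passed the filters on low values in both assays. RNA was measured in pachytene spermatocytes (PS), which are in meiotic prophase, and in round spermatids (RS), the haploid cells that follow the meiotic divisions. Both came from adult C57BL/6 testes of *Rnf8;Scml2*-dKO males, which lack the ubiquitin ligase RNF8 and the X-linked germline Polycomb protein SCML2, and the study's methods describe a small-scale sedimentation that yields PS and RS from 1 animal. Acetylation of H3 at lysine 27 (H3K27ac), a mark of active promoters and enhancers, was profiled by ChIP-seq in PS and RS of adult wild-type C57BL/6 testes. Each assay had 2 biological replicates per stage, 8 samples in all. RNA and H3K27ac therefore come from different genotypes, RNA of wild-type cells was not analysed here, and no value below compares genotypes.

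H3K9 methylation marks silent chromatin. SUV39H1 and SUV39H2 place the trimethyl mark at repeats near centromeres, SETDB1 places it at retroelements where zinc finger proteins bring in TRIM28, and EHMT1 (GLP) with EHMT2 (G9a) form the pair that places the dimethyl mark in gene-rich chromatin. HP1 proteins bind methylated H3K9 through their chromodomain, and CBX1 is HP1β, CBX3 is HP1γ and CBX5 is HP1α. In male germ cells this pathway is known for its part in pairing of chromosomes, in silencing of retroelements and in the silent state of the sex chromosomes.

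Reads on genes numbered 9655405 to 12289694 per RNA sample, and 41095 to 74919 H3K27ac peaks were listed per sample, the highest number in RS replicate 1. Markers of the labelled stages mostly moved with the labels. The 8 round spermatid markers summed to 450 and 771 RPKM in PS and to 13100 and 13900 in RS, with all 8 called higher. The 8 pachytene markers summed to 963 and 903 in PS and to 308 and 399 in RS, with 6 called lower. *Ccna1* went the other way (76.7 and 108.0 in PS, 120.0 and 113.0 in RS), and the samples of *Sycp1* overlapped (62.2 and 26.1 in PS, 28.0 and 37.4 in RS). RPKM is a read count scaled to transcript length and library size. Markers of other testis cells moved with the stage as well. The 7 Leydig cell markers summed to 741 and 552 RPKM in PS against 68.8 and 42.8 in RS, all 7 lower in RS and none at 0, led by *Insl3* at 593 and 450 RPKM against 60.0 and 35.8. The 6 blood and macrophage markers summed to 1.09 and 1.2 RPKM in PS and to 12.6 and 11.0 in RS, where 4 were higher, with the haemoglobin genes *Hbb-b1* and *Hba-a1* at 0 in every sample. Spermatogonial markers summed to 25.7 and 18.4 RPKM in PS and 37.1 and 34.1 in RS (4 of 8 called higher) and Sertoli cell markers were at 11.0 and 5.38 against 13.2 and 10.3 (3 of 8 called higher), while the 4 peritubular markers were at 5.6 and 5.03 against 4.92 and 4.7, with none called. The part of these cells in the differences below was not tested, and in such bulk samples a change in the share of a cell type and a change in RNA per cell cannot be told apart. Reads were still assigned to the targeted genes (*Rnf8* at 4.02 and 4.88 RPKM in PS and 2.15 and 2.09 in RS, *Scml2* at 0.724 and 1.71 in PS and 0.649 and 1.72 in RS). Gene-level counts do not separate the deleted part from the rest, so these values do not check the genotype.

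The promoters of 4 of the genes are shown because they carry the main contrasts: *Suv39h2* and *Suv39h1* rose in RNA, with H3K27ac called lower at *Suv39h1* and not called at *Suv39h2*, *Trim28* was lower in both measures, and *Cbx1* had the largest fall in RNA. Each sequence runs 5′ to 3′ on the gene's strand, from 250 bases before to 50 after the RefSeq start site (RefSeq, GRCm38.p6, the assembly that mm10 names). Capitals mark, on either strand, the GC box GGGCGG, the CCAAT box, the full cAMP response element TGACGTCA and the MYB motif TAACNG. No marked matches overlap in these 4 sequences.
Suv39h2, chr2:3474937-3475236, minus strand: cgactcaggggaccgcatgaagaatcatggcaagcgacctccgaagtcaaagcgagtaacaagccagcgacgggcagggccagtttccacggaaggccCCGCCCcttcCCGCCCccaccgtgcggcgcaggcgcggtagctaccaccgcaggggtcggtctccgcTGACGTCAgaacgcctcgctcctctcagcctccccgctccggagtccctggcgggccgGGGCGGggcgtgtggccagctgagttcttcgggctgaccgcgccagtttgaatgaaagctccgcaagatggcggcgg
Suv39h1, chrX:8074711-8075010, minus strand: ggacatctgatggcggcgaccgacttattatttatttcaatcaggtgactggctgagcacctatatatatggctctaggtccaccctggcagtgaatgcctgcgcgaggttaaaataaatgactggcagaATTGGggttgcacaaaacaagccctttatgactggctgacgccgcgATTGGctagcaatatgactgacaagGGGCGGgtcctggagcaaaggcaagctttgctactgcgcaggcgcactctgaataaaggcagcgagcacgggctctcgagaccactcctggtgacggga
Trim28, chr7:13023902-13024201, plus strand: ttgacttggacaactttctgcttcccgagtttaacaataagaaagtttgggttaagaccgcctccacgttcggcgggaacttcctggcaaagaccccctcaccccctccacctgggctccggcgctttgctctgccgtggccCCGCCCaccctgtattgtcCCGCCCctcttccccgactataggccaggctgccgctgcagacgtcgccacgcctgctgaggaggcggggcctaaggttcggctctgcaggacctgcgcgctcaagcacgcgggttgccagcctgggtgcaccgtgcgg
Cbx1, chr11:96788885-96789184, plus strand: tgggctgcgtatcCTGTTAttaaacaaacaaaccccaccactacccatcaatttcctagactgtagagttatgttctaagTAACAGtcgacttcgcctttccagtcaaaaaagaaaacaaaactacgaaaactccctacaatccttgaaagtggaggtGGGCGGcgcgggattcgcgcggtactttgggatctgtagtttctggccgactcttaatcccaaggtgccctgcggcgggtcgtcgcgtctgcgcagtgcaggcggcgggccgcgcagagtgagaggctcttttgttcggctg
RefSeq gives 14 promoters for the 10 genes. The full cAMP response element stood in 1 of the 14, that of *Suv39h2*, starting 85 bases before the start site, and in 1.79% of all 32851 mouse promoters of the same length. GC boxes were in 12 of 14 against 35.7% of all promoters, CCAAT boxes in 4 of 14 against 37.4%, and the MYB motif in 2 of 14 against 23.3%. The promoters of the 10 genes held a median of 67.3% G and C and 29 CpG dinucleotides, against 52.7% and 7 over all promoters. These matches are a description of the letters, and binding was not measured.

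Comparing RNA of RS with PS asks how the supply of H3K9 methylation and reader transcripts differs on either side of the meiotic divisions. Of the 10 genes, 4 were higher in RS (*Suv39h2*, *Suv39h1*, *Ehmt1* and *Setdb2*), 4 were lower (*Cbx1*, *Cbx5*, *Setdb1* and *Trim28*) and 2 did not pass (*Ehmt2* and *Cbx3*). A gene was called at a Benjamini-Hochberg adjusted p under 0.05 in edgeR's quasi-likelihood test over all 14647 genes tested and a change of more than 1.5-fold. Over all genes tested, 58.0% were called, 30.4% higher in RS and 27.6% lower, so that a call by itself is common between these stages. The median log2 difference, RS minus PS, was 0.15 over the 10 genes and 0.01 over all genes. In RPKM the PS and RS samples of each gene did not overlap. That held even for *Cbx3*, whose read counts did overlap (87 and 81 in PS, 86 and 85 in RS). The share of all genes without overlap was not computed, so this separation is not a result about the 10 genes.

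**Figure D1:**
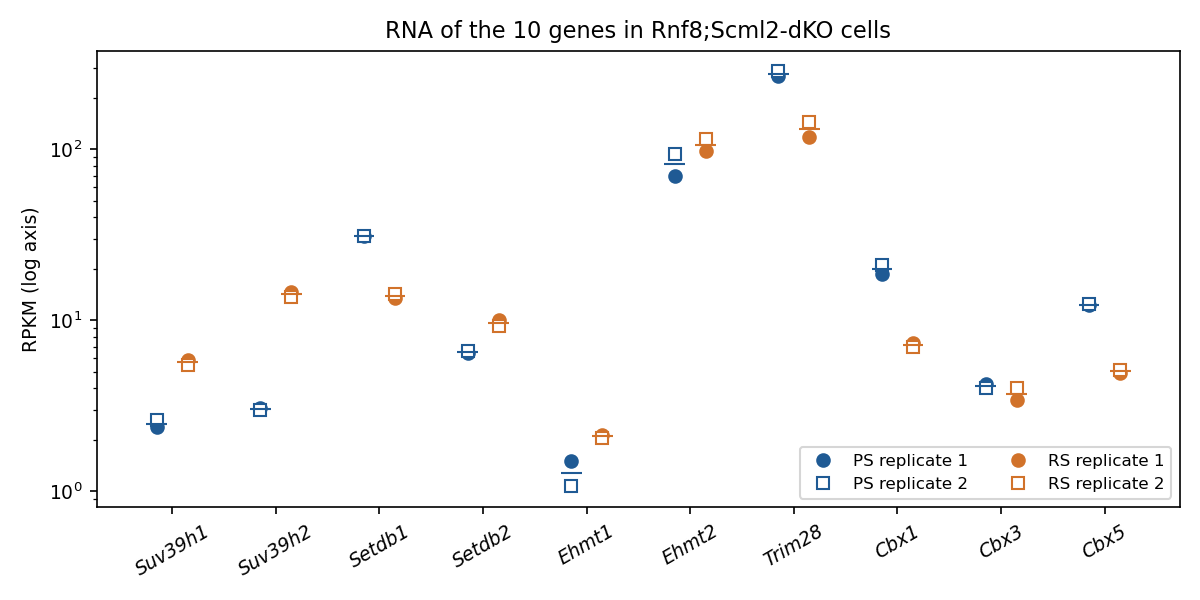
RNA level of the 10 genes in RPKM on a log axis, for PS (blue) and RS (orange) of Rnf8;Scml2-dKO mice. Filled circles are replicate 1, open squares replicate 2, and lines the mean of 2. Suv39h2 rose from 3.08 and 2.97 to 14.6 and 13.8, while Trim28, the most abundant, went from 270.1 and 285.5 to 118.1 and 144.9.

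The SUV39H genes showed the largest rise. *Suv39h2*, whose product is known as the testis-enriched SUV39H enzyme, was at 3.08 and 2.97 RPKM in the PS samples (148 and 138 reads) and at 14.6 and 13.8 in the RS samples (869 and 694 reads). Both RS samples were far above both PS samples, a 4.9-fold rise (log2 2.29 ± 0.159 SE, edgeR adjusted p = 7.91e-06). *Suv39h1*, its X-linked paralogue, was at 2.37 and 2.6 RPKM in PS and at 5.89 and 5.45 in RS. The RS samples were again the higher ones, by 2.35-fold (log2 1.23 ± 0.201, edgeR adjusted p = 8.09e-04). The ratio of *Suv39h2* to *Suv39h1* RPKM was 1.3 and 1.14 in PS and 2.48 and 2.53 in RS, and the summed RPKM of the pair went from 5.45 and 5.57 to 20.5 and 19.2. *Dclre1c*, on the opposite strand, shares 5302 bp with the 3′ part of *Suv39h2*, and the kits named in the methods do not mark strand, so reads there cannot be assigned for certain. *Dclre1c* itself had 74 and 69 reads in PS and 39 and 50 in RS.

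*Suv39h1* lies on the X chromosome, which is silenced in PS. Its rise was set beside the 470 X-linked genes tested: 291 of them, 61.9%, were higher in RS, 7 were lower, and their median log2 difference was 1.29. *Suv39h1* exceeded 47.0% of them, so its change lay near the middle of the X-linked genes tested. These 470, of 1011 X-linked genes, passed the filter on low counts, which a gene can pass on its RS samples alone. Genes silent in PS that pass in this way raise the share higher in RS and the median. Their number was not computed, so the rank does not place *Suv39h1* within its whole chromosome.

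The SETDB genes moved in opposite directions. *Setdb1*, which encodes the partner enzyme of TRIM28, was at 31.3 RPKM in both PS samples and at 13.5 and 14.3 in RS. Both RS samples were below both PS samples, 2.19-fold in the fit (log2 -1.13 ± 0.125, edgeR adjusted p = 8.97e-05). *Setdb2*, whose product has a methyl-CpG-binding domain beside its SET domain, was at 6.48 and 6.59 RPKM in PS and at 9.99 and 9.21 in RS. It was 1.51-fold higher in RS (log2 0.60 ± 0.166, edgeR adjusted p = 0.0125), just past the fold threshold, and the call was lost without PS replicate 1 (log2 0.54) and without RS replicate 1 (log2 0.62, edgeR adjusted p = 0.065). *Setdb1* made up 82.7% of the summed RPKM of the pair in PS and 59.1% in RS, as the ratio of *Setdb1* to *Setdb2* went from 4.84 and 4.75 to 1.35 and 1.55.

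*Ehmt2* and *Ehmt1*, whose products act as a pair, differed widely in level. *Ehmt2* was at 70.0 and 94.1 RPKM in PS and at 97.6 and 114.6 in RS. The samples of the stages did not overlap but PS replicate 2 came close to RS replicate 1, and the difference did not pass (log2 0.41 ± 0.17, edgeR adjusted p = 0.0607). Without PS replicate 2 it passed at log2 0.70 and without RS replicate 1 at log2 0.61, whereas without PS replicate 1 it was 0.17 (edgeR adjusted p = 0.286). The isoform from the upstream start site, NM_147151, took 65.7% and 55.2% of *Ehmt2* reads in PS and 52.9% and 55.3% in RS, with PS replicate 1 apart from the other samples. *Ehmt1* was the least abundant of the 10 genes in both stages, at 1.49 and 1.07 RPKM in PS (84 and 58 reads) and 2.15 and 2.03 in RS (146 and 118 reads). It was 1.67-fold higher in RS (log2 0.74 ± 0.241, edgeR adjusted p = 0.0246). That call rests on few reads and was lost without PS replicate 2 (log2 0.56), without RS replicate 1 (log2 0.80), without RS replicate 2 (log2 0.88) and with DESeq2 (adjusted p = 0.0655). *Ehmt2* RPKM was 46.8 and 88.0 times that of *Ehmt1* in PS and 45.4 and 56.3 times in RS.

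*Trim28*, the corepressor that links zinc finger proteins to SETDB1 and HP1, was the most abundant gene of the 10 in both stages. It stood at 270.1 and 285.5 RPKM in PS, where it exceeded 99.3% of all genes, and at 118.1 and 144.9 in RS, where it exceeded 97.1%. Both RS samples were below both PS samples, 2.06-fold in the fit (log2 -1.04 ± 0.132, edgeR adjusted p = 1.94e-04). The ratio of *Trim28* to *Setdb1* was 8.62 and 9.13 in PS and 8.77 and 10.1 in RS, and the PS and RS ranges of the ratio overlapped.

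Of the HP1 genes, *Cbx1* and *Cbx5* fell and *Cbx3* did not pass. *Cbx1* was at 18.7 and 21.1 RPKM in PS and at 7.41 and 7.0 in RS. Every RS sample was below every PS sample, 2.69-fold in the fit (log2 -1.43 ± 0.19, edgeR adjusted p = 2.55e-04). *Cbx5* was at 12.2 and 12.4 RPKM in PS and at 4.93 and 5.12 in RS, a 2.39-fold fall (log2 -1.25 ± 0.131, edgeR adjusted p = 6.51e-05). Its transcript from the upstream start site, NM_001076789, held 98.4% and 96.5% of *Cbx5* reads in PS and 98.2% and 91.9% in RS. *Cbx3* was at 4.23 and 4.04 RPKM in PS and at 3.41 and 4.0 in RS, with 81 to 87 reads in every sample. The difference was small beside its error (log2 -0.12 ± 0.232, edgeR adjusted p = 0.663), and without RS replicate 1 its sign turned (log2 0.08). The GENCODE vM21 annotation names 8 pseudogenes for *Cbx3*, and since the authors kept unique alignments only, reads shared with these copies would be lost and the *Cbx3* level is uncertain.

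The makeup of the HP1 transcripts differed with the stage. Summed RPKM of the 3 genes was 35.2 and 37.6 in PS and 15.7 and 16.1 in RS. *Cbx3* made up 12.0% and 10.8% of it in PS and 21.7% and 24.8% in RS. *Cbx1* made up 53.2% and 56.2% in PS and 47.0% and 43.4% in RS, and *Cbx5* 34.7% and 33.0% against 31.3% and 31.8%. The PS and RS samples did not overlap for any of the 3 shares, which add up to the whole and are not separate results. *Cbx3* RNA itself was not called (log2 -0.12), while *Cbx1* and *Cbx5* were lower in RS. How often shares in other gene families separate was not computed, so the separation is not a result about these genes. The shares were given without a test. With 2 samples against 2, an exact two-sided permutation test cannot give a p below 0.333. Among the 6 methyltransferase genes, summed RPKM was 114.7 and 138.5 in PS and 143.7 and 159.4 in RS. *Ehmt2* made up 64.4% of it in PS and 69.9% in RS (means of 2 samples), *Setdb1* 24.9% and 9.17%, and *Suv39h2* 2.42% and 9.41%.

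**Figure D2:**
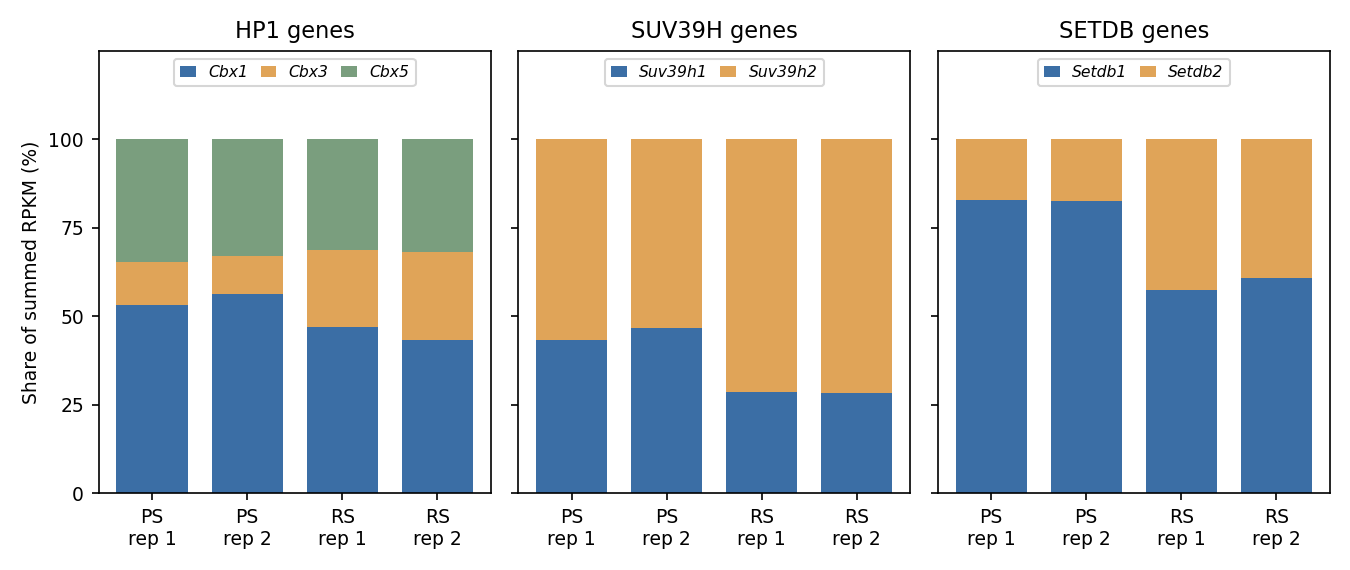
Share of each paralogue in the summed RPKM of its family, in percent, for each PS and RS sample of Rnf8;Scml2-dKO mice. The Cbx3 share went from 12.0% and 10.8% in PS to 21.7% and 24.8% in RS, the mean Suv39h2 share from 55.0% to 71.5% and the mean Setdb2 share from 17.3% to 40.9%.

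Ordered by mean RPKM, the PS levels ran from *Trim28* (277.8) through *Ehmt2* (82.0), *Setdb1* (31.3), *Cbx1* (19.9), *Cbx5* (12.3), *Setdb2* (6.53), *Cbx3* (4.14), *Suv39h2* (3.03) and *Suv39h1* (2.48) to *Ehmt1* (1.28). No neighbours in that order had overlapping samples. In RS the order was *Trim28* (131.5), *Ehmt2* (106.1), *Suv39h2* (14.2), *Setdb1* (13.9), *Setdb2* (9.6), *Cbx1* (7.2), *Suv39h1* (5.67), *Cbx5* (5.02), *Cbx3* (3.71) and *Ehmt1* (2.09). There the samples of *Suv39h2* and *Setdb1* overlapped, while those of the other neighbours did not. *Suv39h2* moved from rank 8 in PS to rank 3 in RS, and the share of all genes below it from 62.6% to 80.7%.

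H3K27ac at the start sites was compared between wild-type RS and PS as the highest fold enrichment over background of any peak within 2 kb of a start site. All 10 genes had such a peak in all 4 samples. By limma on log2(1 + fold enrichment), centred per sample on shared peaks, 2 of the 10 were lower in RS (*Suv39h1* and *Trim28*) and 0 were higher. Among the 13699 genes tested, 13.7% were called higher in RS and 13.3% lower. At an unadjusted p under 0.05 with no fold threshold, 6 of the 10 were lower and 2 higher, beside 23.6% and 22.5% of all genes tested at the same limit. The median difference was -0.36 over the 10 genes and -0.04 over all genes. Without the centring all differences shift by -0.40 on the log2 scale: the calls over all genes go from 1871 higher and 1821 lower to 717 higher and 2163 lower, and 4 of the 10 genes are then lower, with *Setdb1* and *Cbx1* added.

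**Figure D3:**
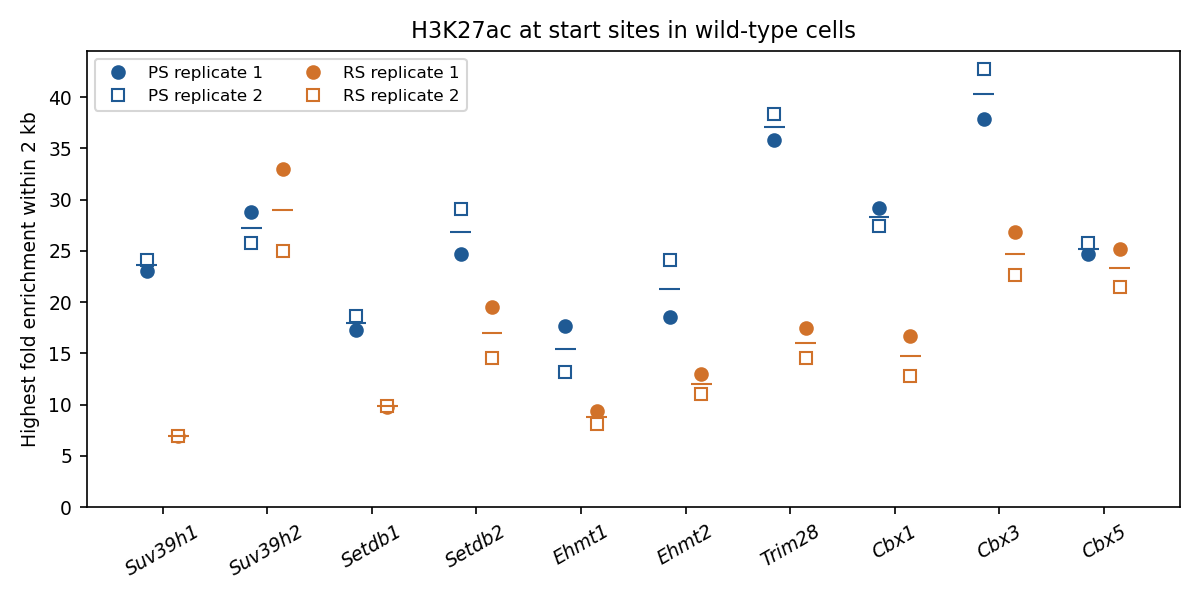
Highest H3K27ac fold enrichment of a peak within 2 kb of a start site of each gene, before centring, in PS (blue) and RS (orange) of wild-type mice. Filled circles are replicate 1, open squares replicate 2, and lines the mean of 2. Suv39h1 went from 23.1 and 24.1 in PS to 6.92 and 6.97 in RS, and the stages overlapped for Suv39h2 and Cbx5.

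*Suv39h1* had the largest H3K27ac difference of the 10. Fold enrichment was 23.1 and 24.1 in PS and 6.92 and 6.97 in RS. Both RS samples were well below both PS samples (log2 -1.24 ± 0.17, limma adjusted p = 0.00374). The peak over its start site, chrX:8072517-8075753 when the samples are joined, covered 2736 and 3166 bp in PS and 1775 and 1202 bp in RS. Of 572 X-linked genes tested 142 were lower in RS and 61 higher, with a median of -0.34, and *Suv39h1* lay below 75.5% of them. Genes with a peak in only some samples were included, with 0 where no peak was listed. Such values also enter this rank. RNA of *Suv39h1* in the dKO went the other way, 2.35-fold higher in RS. By immunostaining, the study reports no accumulation of H3K27ac on the sex chromosomes of dKO spermatocytes. It also reports depletion of the mark from the sex chromatin of dKO spermatids. RNA and H3K27ac of this X-linked gene were not measured here in the same genotype, so the opposite directions cannot be read as a discordance.

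*Suv39h2* kept high fold enrichment in both stages, 28.8 and 25.8 in PS and 33.0 and 25.0 in RS. The samples overlapped. After centring, the difference was 0.47 ± 0.123 on the log2 scale (limma adjusted p = 0.0304) and did not reach 1.5-fold. It was called without PS replicate 1 (log2 0.60), was 0.34 without PS replicate 2 (limma adjusted p = 0.197) and was 0.07 without the centring. The start site was strongly acetylated in wild-type PS, where every gene described here had a start-site peak. *Suv39h2* RNA, 4.9-fold higher in RS, was measured in the dKO and not in these wild-type cells.

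*Trim28* was lower in both measures. Its fold enrichment was 35.8 and 38.4 in PS and 17.5 and 14.5 in RS, with no overlap (log2 -0.77 ± 0.103, limma adjusted p = 0.00346). *Cbx1* stood at 29.2 and 27.4 in PS and 16.7 and 12.8 in RS. These samples did not overlap, but the centred difference fell short of 1.5-fold (log2 -0.51 ± 0.112, limma adjusted p = 0.0163), and it was called without PS replicate 2 (log2 -0.61) and was -0.42 without PS replicate 1. *Setdb1*, at 17.3 and 18.6 in PS and 9.76 and 9.87 in RS, did not pass (log2 -0.41 ± 0.168, limma adjusted p = 0.106). Its difference was -0.61 without RS replicate 2 and -0.21 without RS replicate 1. The value of RS replicate 2 came from a peak in a region 250 bp into the gene, and its peak over the start site was at 6.39.

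The other 5 genes did not pass. *Ehmt2* had fold enrichment of 18.5 and 24.1 in PS and 13.0 and 11.0 in RS (log2 -0.38 ± 0.139), and *Ehmt1* 17.7 and 13.2 in PS and 9.36 and 8.13 in RS (log2 -0.35 ± 0.209). Leaving out 1 sample moved the *Ehmt1* difference between -0.10 without PS replicate 1 and -0.60 without PS replicate 2, and that of *Ehmt2* between -0.51 and -0.24 without the same samples. The remaining 3 share their acetylated region with a neighbour, so its signal cannot be assigned to either gene. *Cbx3* had the highest values of the 10, 37.9 and 42.8 in PS and 26.9 and 22.6 in RS (log2 -0.29 ± 0.113), and its start lies 722 bp from that of *Hnrnpa2b1*, whose RNA fell (log2 -1.40). *Setdb2*, at 24.7 and 29.1 in PS and 19.5 and 14.5 in RS (log2 -0.24 ± 0.103), starts 104 bp from *Cab39l*, whose RNA rose (log2 0.78). *Cbx5*, at 24.7 and 25.8 in PS and 25.2 and 21.5 in RS, starts 616 bp from *Hnrnpa1*, whose RNA rose (log2 0.63, counted together with *Gm10052*). The samples of *Cbx5* overlapped, and its difference was 0.28 ± 0.108 after centring and -0.11 without it. These neighbours were named after their values were seen, for their position only.

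**Figure D4:**
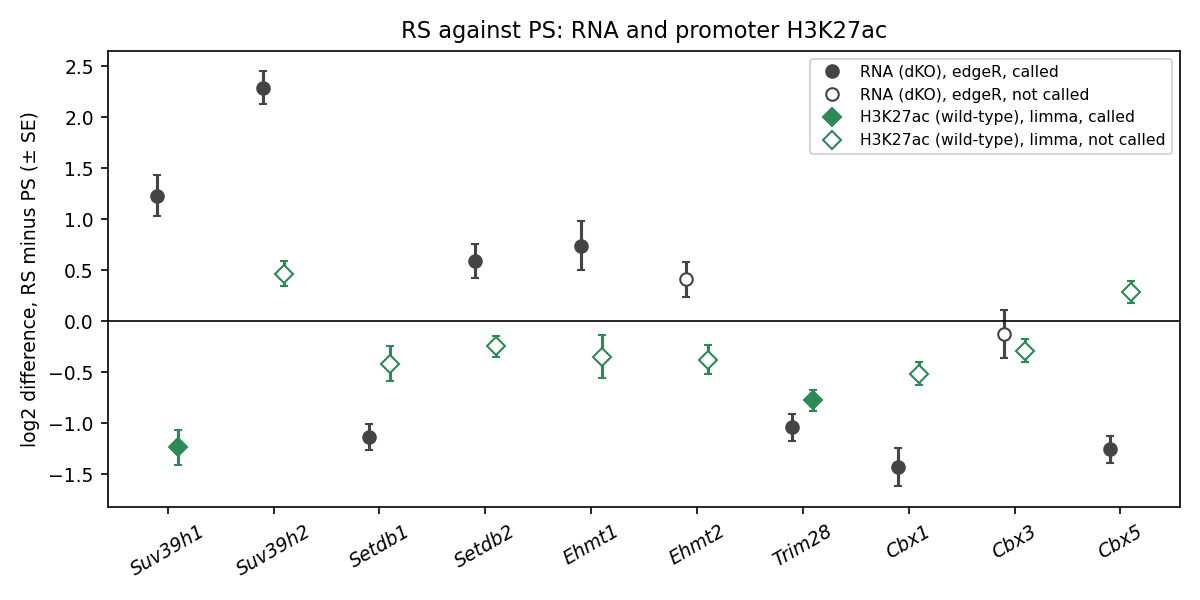
Log2 difference, RS minus PS, with its standard error for each gene: RNA of Rnf8;Scml2-dKO cells (grey circles, edgeR) and start-site H3K27ac of wild-type cells (green diamonds, limma after centring), with filled symbols for called differences. Suv39h1 is at 1.23 in RNA and -1.24 in H3K27ac, and Trim28 at -1.04 and -0.77.

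Away from the start sites the lists held weaker peaks. Joined across samples, 21 regions lay within 2 kb of a start site, with fold enrichment from 3.25 to 42.8, and 12 of them were present in all 4 samples. A further 31 lay farther away, with fold enrichment from 2.85 to 11.8. Of these 1 was present in all 4 samples, 6 in both PS samples only, 4 in both RS samples only and 17 in a single sample, 8 of these in RS replicate 1, the sample with the most peaks. A region missing from a list may be under the peak threshold of that sample, and its absence is not a measured 0.

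The SUV39H genes had different patterns of farther regions. *Suv39h1* had 9 farther regions, 4 in both PS samples only, 5 in a single PS sample and 0 in any RS sample. The strongest of the 4 was the intronic chrX:8066147-8066688, at 5.76 and 5.48 in PS. The study reports that only part of the intronic and intergenic H3K27ac peaks of the sex chromosomes in PS persisted into RS. Listing in PS alone is therefore not particular to *Suv39h1*, and its share over X-linked regions was not computed. *Suv39h2* had 5, of which the intronic chr2:3467899-3470804 was the region present in all 4 samples. Its fold enrichment was 5.35 and 7.13 in PS and 11.8 and 8.71 in RS, and it covered 733 and 365 bp in PS against 2906 and 2078 bp in RS. Both RS samples were the higher and the wider ones. A further 2 regions of *Suv39h2* were in both RS samples only, chr2:3471125-3471410 (3.25 and 4.64) in an intron and chr2:3472323-3472618 (5.7 and 5.22) annotated as exon.

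**Figure D5:**
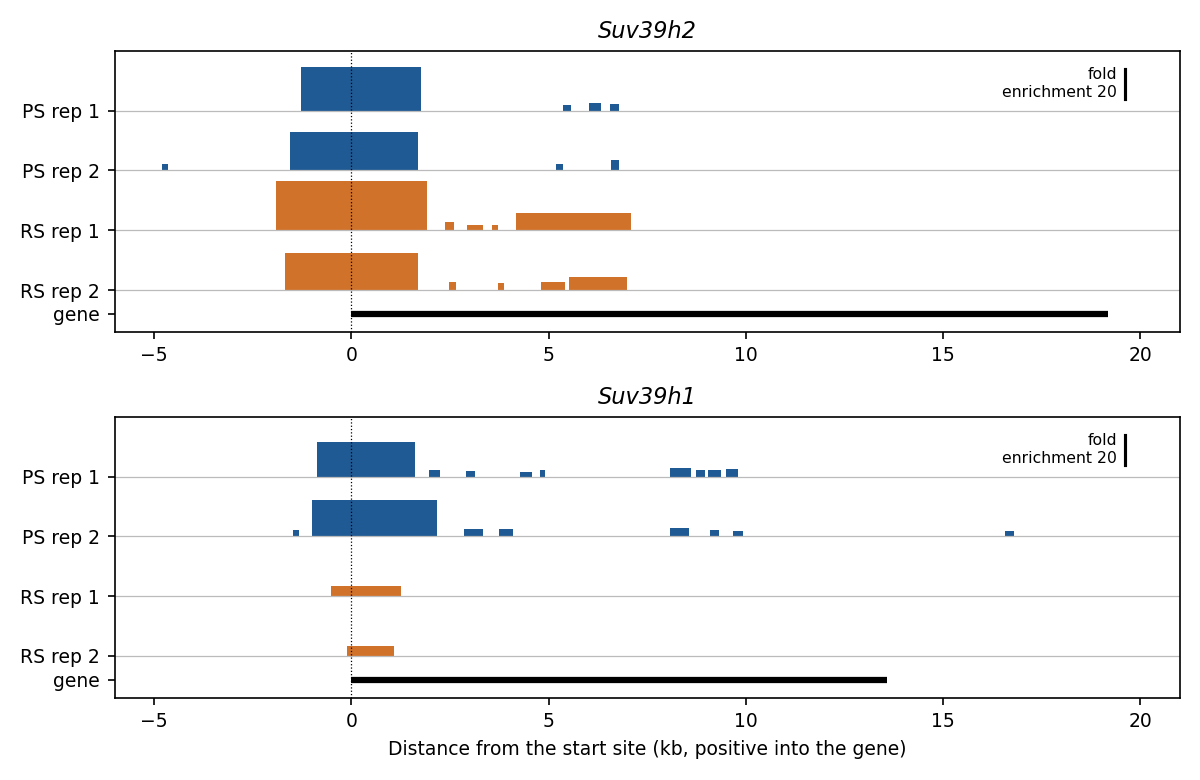
H3K27ac peaks around Suv39h2 (top) and Suv39h1 (bottom) in each wild-type sample, by distance from the start site in kb. Box height is fold enrichment (scale bar, 20) and the black line is the gene. Suv39h2 has a region about 4 to 7 kb into the gene that covers 2906 and 2078 bp in RS against 733 and 365 bp in PS, and the weaker peaks inside Suv39h1 are in PS samples.

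A few other introns held regions whose listing differed between the stages, and these differences were not tested. In *Ehmt1*, chr2:24872134-24873740 was at 5.35 in PS replicate 1, not listed in PS replicate 2, and at 11.4 and 7.55 in RS. The nearby chr2:24871151-24871924 was in both RS samples only (4.47 and 4.06). *Cbx5* had chr15:103209378-103210576 in both RS samples only (6.92 and 6.39) and chr15:103207130-103207685 in both PS samples only (4.94 and 3.84). In *Setdb1*, chr3:95352159-95352555 was in both PS samples only (4.94 and 5.48). The downstream start site of *Cbx5* had a weak peak in all 4 samples, chr15:103215094-103216090, at 4.53 and 6.58 in PS and 7.32 and 5.81 in RS, where the stages overlapped.

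Other genes of the pathway were read from the same RNA fit. Of 26 listed partners of H3K9 methylation, 25 were found and 24 tested: 6 were higher in RS, 7 lower and 11 not called, with a median log2 difference of -0.32. Over all genes tested 30.4% were higher and 27.6% lower, shares near those of the partners. The largest rise was that of *Cdyl*, a chromodomain protein that binds methylated H3K9, from 8.87 and 11.9 RPKM in PS to 104.0 and 77.1 in RS (log2 3.17 ± 0.214, edgeR adjusted p = 7.32e-06). *Prdm16* (log2 2.57), *Trim66* (2.53) and *Pphln1* (1.94) were also higher. *Prdm16* was low in both stages, at 0.214 and 0.192 RPKM in PS and 1.07 and 1.16 in RS. *Mphosph8*, whose product binds methylated H3K9 in the HUSH silencing complex with that of *Pphln1*, had the largest fall, from 85.4 and 73.1 RPKM to 13.4 and 13.8 (log2 -2.50 ± 0.134, edgeR adjusted p = 3.62e-06). The methyl-CpG-binding gene *Mbd1* (log2 -2.35), the lamin B receptor gene *Lbr* (-1.94), whose product binds HP1, and *Uhrf1* (-1.20), whose product reads methylated H3K9 and DNA methylation, were lower as well. H3K27ac at the start sites was higher in RS for 4 and lower for 5 of the 24 partners tested, beside 13.7% and 13.3% of all genes tested.

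Of the 12 genes listed as H3K9 demethylases or their relatives, all tested, 3 were higher in RS, 4 lower and 5 not called, with a median of -0.19. The share called was near the 58.0% of all genes. *Phf2* had the largest fall, from 66.8 and 70.7 RPKM to 4.62 and 6.23 (log2 -3.63 ± 0.17, edgeR adjusted p = 3.29e-06). *Kdm3a*, which removes the mono- and dimethyl marks and is needed for spermatid maturation, was at 118.0 and 116.0 RPKM in PS and 36.9 and 44.2 in RS (log2 -1.49 ± 0.128, edgeR adjusted p = 2.15e-05). *Jmjd1c* (log2 -1.20) and *Kdm4c* (-0.70) were lower too. *Kdm4b* (log2 1.77), the X-linked *Phf8* (1.55) and *Kdm4a* (0.74) were higher.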

How the data were processed

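The 8 samples were grouped by their titles into wild-type H3K27ac ChIP-seq and Rnf8;Scml2-dKO RNA-seq, each of PS and of RS, with 2 replicates per group. ChIP libraries were made by tagmentation of the immunoprecipitated chromatin, and RNA was amplified before library preparation by kits that do not mark strand. The submitters' processing notes name Bowtie 1.1.1, MACS2 2.1.0.20140616, STAR 2.4.2a and mm10, and the study's methods name older releases of Bowtie and MACS2. Peaks were listed per sample. The peak lists deposited by the authors give the pileup signal of each summit, the fold enrichment as a ratio to background, and -log10 p and q values. The lowest -log10 q was 1.38 to 1.97 across the deposited lists. The RNA tables deposited by the authors hold estimated counts of uniquely aligned reads with at most 2 mismatches, split between RefSeq isoforms, and RPKM values normalized by the authors for length and library size. ChIP read totals were not given in the files, so the depth there is known only through the peaks.

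Rows were summed by gene symbol. Counts, rounded to whole numbers, were tested with edgeR 4.0.16 (TMM, quasi-likelihood) where 2 or more samples reached 10 counts. H3K27ac was tested with limma 3.58.1 on log2(1 + fold enrichment), with 0 where no peak was listed, for genes with a peak in at least 2 samples, after centring each sample on the median of 11394 genes with a peak in all 4. Both used an adjusted p of 0.05 (Benjamini-Hochberg) and 1.5-fold. Errors are SE of log2 differences. For edgeR the SE was derived from the test, as the absolute log2 difference divided by the square root of its F statistic. Alternatives for RNA were DESeq2 1.42.0, other size factors, no filter, limma on log2(RPKM + 1) or with 0.1, and the adjusted p alone. For H3K27ac they were no centring, other windows, another peak threshold and other required numbers of samples with a peak. Both assays had a replicate block and runs leaving out each sample. The genes named are the 10 members, both targeted genes and, of each other list, the 4 called genes with the largest change in each direction, and the neighbours and markers named besides were added. Members and lists were chosen with earlier results of these data known. On simulated data with known changes the scripts were tested. R 4.3.3 and Python 3.11.15 with pandas 2.3.3 were used. p-values measure the spread between these samples only.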

Additional observations from a re-analysis of the deposited data

How the results depend on the processing

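No called difference changed sign under any alternative run. For RNA, the 4 lower genes and *Suv39h1* and *Suv39h2* kept their calls under all 11 alternatives each, whereas *Ehmt1* lost its call under 6 and *Setdb2* under 4, which left 2 of the 10 genes called higher by limma on log2(RPKM + 1) and 2 on log2(RPKM + 0.1). The RNA run on the adjusted p alone used the main fit with a looser rule, so it could not lose a call. *Suv39h1* and *Trim28* kept their H3K27ac calls under all 11 alternatives. Several of these could not move their log2 differences. Other windows, other required numbers of samples with a peak and the block left them at -1.235 and -0.773. Without the centring, 717 genes were higher in RS by H3K27ac and 4 of the 10 were lower. Leaving out 1 sample at a time gave 3 to 4 of the 10 genes higher in RNA and 4 lower throughout, with 3128 to 4671 of all genes higher and 2911 to 3983 lower. For H3K27ac it gave 0 to 1 of the 10 higher and 2 to 3 lower, with 1607 to 1997 of all genes higher and 1270 to 2863 lower, the last without RS replicate 1. Shares of the HP1 genes by read counts, which favour long transcripts, were 17.97% in PS and 15.3% in RS for *Cbx1*, 5.29% and 11.12% for *Cbx3*, and 76.74% and 73.58% for *Cbx5*; the *Cbx3* share was the higher in RS on both scales. Replicate numbers are shared between the stages but are not stated to mark the same animal, and the deviations of same-numbered samples from the group means correlated at 0.225 over 14647 genes in RNA and 0.00257 over 13699 in H3K27ac. With the replicate number as a block, 4589 genes were higher and 4134 lower in RNA and 1754 and 1506 in H3K27ac, and the block changed the call of none of the 10 genes in either assay. The causes were not tested. *Ehmt1*, *Cbx3* and *Suv39h1* each had under 100 reads in both PS samples, which limits their precision.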
